A study of Saccharomyces cerevisiae with 6 samples.

Results

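The asparaginase genes of budding yeast comprised 5 of the 5561 named genes on these arrays: ASP1 (YDR321W) and the near-identical copies ASP3-1 (YLR155C), ASP3-2 (YLR157C), ASP3-3 (YLR158C) and ASP3-4 (YLR160C). They were taken by gene symbol, each had 1 spot, and all 5 had a value on all 6 arrays. The study hybridised polyadenylated RNA of Saccharomyces cerevisiae to spotted arrays with 2 channels, with Cy3 on the RNA of untreated cells and Cy5 on that of cells given caffeine at 3, 6 or 9 mM. Caffeine, a methylxanthine, is an inhibitor of TOR complex 1. All cells were W303a lacking the chromosomal TOR1 gene and carried TOR1 on a plasmid, tagged with the haemagglutinin epitope. The tagged gene was either unaltered (WT here) or carried I1954V and W2176R (mutant here), and 1 array was made for each allele at each dose, so no dose was replicated.

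L-asparaginase splits asparagine into aspartate and ammonium. Asp1 is the cytosolic enzyme and acts on asparagine inside the cell, whereas Asp3 is secreted to the cell wall and lets the cell use asparagine from the medium as a nitrogen source. ASP3 is known as a target of nitrogen catabolite repression, in which the GATA activators Gln3 and Gat1 are held back while a good nitrogen source is present and TOR complex 1 is active. The ASP3 copies lie within the ribosomal DNA region. Their transcripts are so alike that each spot could bind RNA of every copy, so the copies are not separate measurements of 4 genes and are not replicates of a condition. How many copies the W303a cells carried is not given in the sources used here, and in RNA of a whole culture more cells with ASP3 RNA and more ASP3 RNA per cell cannot be told apart.

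The values are log2 ratios centred on the median named gene of each array, and a centred value of 0 means that the gene stood at that median. The deposited medians lay between -0.54 and -0.22, and each array had values for 5980 to 6192 of 6214 probes. The sources used here do not give the sense of the ratio. It was taken as caffeine over untreated, Cy5 over Cy3, and every sign below would turn if it ran the other way. The 5 genes and the contrast between ASP3 and ASP1 were chosen with their values on these same arrays known. Their values are therefore given as a description, with no test.

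In WT cells the ASP3 copies stood far above the array median at all 3 doses while ASP1 stood below it. The mean of the 4 copies was 3.98 ± 0.46 at 3 mM, 5.49 ± 0.39 at 6 mM and 5.49 ± 0.78 at 9 mM (log2 ratio, SD over 4 copies on 1 array). These means correspond to 15.8-fold, 44.9-fold and 45.0-fold above the array median. ASP1 stood at -1.70, -2.04 and -2.27 at the same doses, which is 3.24-fold, 4.11-fold and 4.81-fold below the median. All 4 copies were at least 2-fold above the median on each WT array, as were 9.42% of all genes at 3 mM, 14.0% at 6 mM and 17.0% at 9 mM. ASP1 was at least 2-fold below it on each WT array, as were 8.67%, 13.1% and 18.0% of genes. Nothing is read from these shares, since the genes were chosen on these values.

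**Figure D1:**
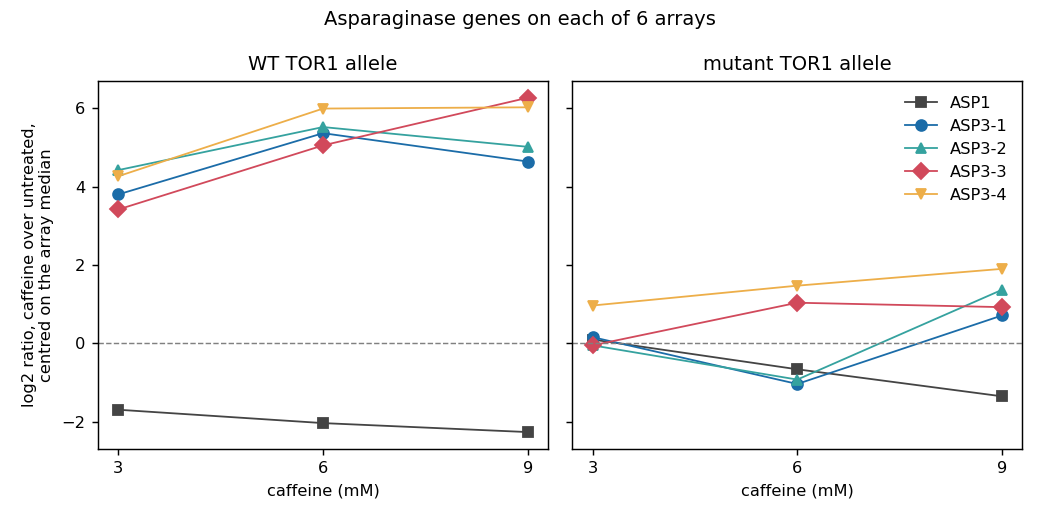
Centred log2 ratio (caffeine over untreated, y axis) of the 5 asparaginase genes against caffeine dose in mM (x axis), with the WT allele on the left and the mutant allele on the right. Each point is 1 spot on 1 array, and the dashed line is the array median. In WT the ASP3 copies lie between 3.42 and 6.27 and ASP1 between -2.27 and -1.70, and in the mutant the ASP3 copies lie between -1.04 and 1.90 and ASP1 between -1.35 and 0.10.

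The copies differed in how they moved between the doses in WT. ASP3-1 stood at 3.80, 5.37 and 4.64 and ASP3-2 at 4.43, 5.53 and 5.02 at 3, 6 and 9 mM. Both were highest at 6 mM. ASP3-3 stood at 3.42, 5.06 and 6.27, and ASP3-4 at 4.27, 6.00 and 6.03. ASP3-3 went from the lowest copy at 3 and 6 mM to the highest at 9 mM, while ASP3-4 was level from 6 to 9 mM. The deposited ratios of ASP3-3 were 8.67, 25.96 and 59.58, and those of ASP3-1 were 11.32, 32.23 and 19.26. An ASP3 copy had the highest value of any named gene on every WT array, namely ASP3-2 at 3 mM, ASP3-4 at 6 mM and ASP3-3 at 9 mM. The genes were chosen with these values known, so this is a description only.

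With the mutant allele the same copies lay near the array median at 3 mM and were split at 6 mM. At 3 mM, ASP3-1 stood at 0.16, ASP3-2 and ASP3-3 both at -0.05 and ASP3-4 at 0.97. At 6 mM, ASP3-1 and ASP3-2 stood at -1.04 and -0.93, but ASP3-3 and ASP3-4 at 1.04 and 1.47. At 9 mM all 4 were above the median, with ASP3-1 at 0.71, ASP3-2 at 1.37, ASP3-3 at 0.92 and ASP3-4 at 1.90. ASP3-4 was the highest copy on each mutant array. At least 2-fold above the median were 0 copies at 3 mM, 2 at 6 mM and 2 at 9 mM, beside 4.40%, 7.38% and 14.6% of all genes. At least 2-fold below it were ASP3-1 at 6 mM and ASP1 at 9 mM, beside 8.63% of genes at 3 mM, 17.6% at 6 mM and 13.9% at 9 mM.

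The mean of the copies with the mutant allele was 0.26 ± 0.48 at 3 mM, 0.14 ± 1.30 at 6 mM and 1.23 ± 0.53 at 9 mM (SD over 4 copies). ASP1 stood at 0.10, -0.66 and -1.35 on these arrays. It was thus close to the median at 3 mM and further below it at each higher dose, and at 9 mM it was 2.56-fold below.

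The order of the 6 arrays by the ASP3 mean was WT 9 mM, WT 6 mM, WT 3 mM, mutant 9 mM, mutant 3 mM and mutant 6 mM. The step from WT 6 to WT 9 mM was 0.01 and that from mutant 3 to mutant 6 mM was -0.12. By ASP1, from the highest value, the order was mutant 3 mM, mutant 6 mM, mutant 9 mM, WT 3 mM, WT 6 mM and WT 9 mM. No dose was replicated and the SD over the copies gives no spread between arrays. Neighbouring places in either order therefore have no spread to be set against.

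At matched doses the alleles differed in opposite directions for ASP3 and ASP1. The ASP3 mean in the mutant lay below WT by a log2 difference of -3.72 at 3 mM, -5.35 at 6 mM and -4.27 at 9 mM, so that the ratio in WT was 13.2-fold, 40.8-fold and 19.2-fold that of the mutant. The gap was widest at 6 mM, where ASP3-1 and ASP3-2 differed by -6.41 and -6.45 but ASP3-3 and ASP3-4 by -4.02 and -4.52. ASP1 in the mutant lay above WT by 1.79, 1.37 and 0.91 at the rising doses, a gap that was smaller at each higher dose. For every copy, all 3 mutant values lay below all 3 WT values, as for 14.6% of the 5212 genes with a value on all arrays. For ASP1 all 3 mutant values lay above all 3 WT values, as for 13.7% of those genes. Each array compared treated with untreated RNA of 1 strain, so a difference in the untreated level of a gene between the strains cannot be told apart from a difference in its response.

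Setting ASP3 against ASP1 on the same array gives a value that does not depend on how the array is centred. The ASP3 mean exceeded ASP1 by 5.68, 7.52 and 7.76 log2 units in WT at 3, 6 and 9 mM. In the mutant the same difference was 0.16, 0.80 and 2.58. The contrast was thus larger at each higher dose in both alleles, and the largest mutant value was smaller than the smallest WT value. From 6 to 9 mM in WT the ASP3 mean moved by 0.01 and ASP1 by -0.23. From 3 to 6 mM in the mutant they moved by -0.12 and -0.76. These steps thus came from the 1 spot of ASP1 and not from a rise of ASP3, and no dose was replicated. At 9 mM the mean ratio of ASP3 was thus 216.6-fold that of ASP1 in WT and 5.98-fold in the mutant. This quantity compares changes and not amounts of RNA, since a two-colour ratio carries no level.

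**Figure D2:**
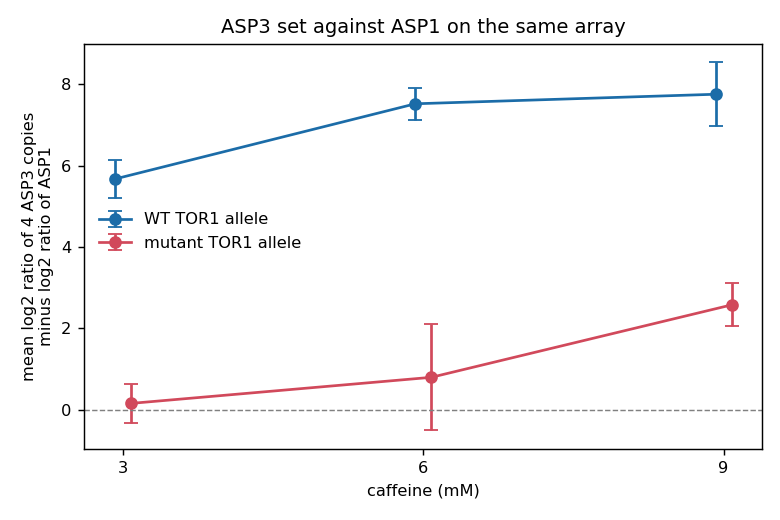
Mean centred log2 ratio of the 4 ASP3 copies minus that of ASP1 (y axis, log2 units) against caffeine dose in mM (x axis), for each TOR1 allele. Error bars are the SD over the 4 copies on 1 array and leave out any error of the ASP1 spot. The WT values run from 5.68 to 7.76 and the mutant values from 0.16 to 2.58.

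A straight line in dose through 0 was fitted to each gene, and its slope is in log2 units per mM with the SE of limma, which pools both alleles (n = 3 arrays per allele). In WT the slopes were 0.68 ± 0.08 for ASP3-1, 0.73 ± 0.09 for ASP3-2, 0.77 ± 0.05 for ASP3-3 and 0.82 ± 0.07 for ASP3-4. ASP1 had -0.30 ± 0.04. In the mutant the slopes were 0.01, 0.05, 0.11 and 0.23 for the copies in the same order and -0.13 for ASP1, with the same SEs. Among 5212 genes, ranked from the lowest, the mutant minus WT slopes of the copies took places 1 (ASP3-2), 2 (ASP3-1), 3 (ASP3-3) and 5 (ASP3-4), while that of ASP1 took place 279 from the highest. Nothing is read from these places, since the genes and this contrast were chosen with the values known. The places of the copies are also not separate, as their spots could bind the same RNA. The mutant slopes of ASP3-1 and ASP3-2 turned below 0 without the mutant 9 mM array, at -0.13 each, and on the deposited scale, at -0.06 and -0.01. A common intercept for the 6 arrays absorbs a dye bias that is constant for a gene, and with it the mean slope of the copies was 0.53 in WT and -0.12 in the mutant.

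The spread between the copies was compared with that between repeat spots of the same gene. On these arrays 34 genes had 2 or more spots, 33 of them with 2 and 1 with 3, whereas the SD of ASP3 is over 4 copies. At the same true spread an SD over 2 values has a lower median than an SD over 4. The comparison therefore makes the copies look more spread and is only a rough guide. The median SD over the repeat spots was 0.43, 0.47 and 0.51 on the WT arrays and 0.68, 0.74 and 0.83 on the mutant arrays at the rising doses. The SD over the ASP3 copies was 0.46, 0.39 and 0.78 in WT. It was 0.48, 1.30 and 0.53 in the mutant. It stood furthest from the repeat spots on the mutant 6 mM array, where 4 of 31 genes with repeat values had a larger SD. On the mutant 9 mM array 23 of 34 genes did. The mutant 6 mM array also had the most probes without a value, 234 of 6214. The part of array quality in the split of the copies was not tested.

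**Figure D3:**
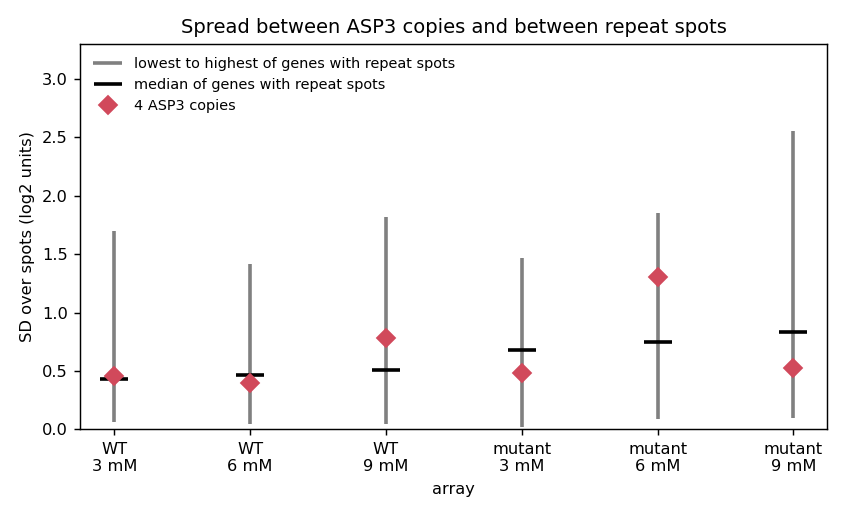
SD in log2 units (y axis) over the 4 ASP3 copies (diamonds) and over the spots of each gene with repeat spots (bar from the lowest to the highest gene, tick at the median) on each array (x axis). The copies lie above the median of the repeat spots on the WT 3 and 9 mM and mutant 6 mM arrays and below it on the other 3, and stand at 1.30, against a median of 0.74, on the mutant 6 mM array. Of the genes with repeat spots 33 had 2 spots and 1 had 3, so their SDs run lower than an SD over 4 at the same spread.

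In the order of RefSeq genes of assembly R64, the 3 genes on either side of each copy made up 18 distinct neighbours. Of these, 5 were 5S ribosomal RNA genes and 4 were named on the arrays. YLR156W stood at -0.32, 0.19 and 1.62 in WT, against -0.59, -0.12 and 0.10 in the mutant. YLR159W stood at 1.56, 1.02 and 1.62 in WT, against 0.10, 1.01 and -0.52 in the mutant. YLR161W reached 1.76 in WT at 9 mM and YLR162W lay between -0.64 and -0.03 on all arrays. Each of them was thus below every ASP3 copy on each WT array. Of 6 neighbours of ASP1, 4 were named on the arrays (YFT2, SWA2, MRPL35 and PEP7). MRPL35, a mitochondrial ribosomal protein gene next to ASP1, stood at 0.83, -0.61 and -1.36 in WT, and none of the 4 lay below ASP1 on any WT array.

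Related genes were tested in the same fit over all 5212 genes, with a gene called at a limma adjusted p (Benjamini-Hochberg) below 0.05. By this rule 17.2% of genes rose and 16.3% fell in WT, 12.1% rose and 15.8% fell in the mutant, and the slope was higher in the mutant than in WT for 1.94% and lower for 2.32%. A gene is said to have risen or fallen where it was so called. The line runs through 0, so such a call says that the values lay above or below the array median. It does not say that they climbed or dropped from dose to dose. The labels do not say whether the doses were separate cultures, so the p-values cover only the scatter of these arrays about a dose line, part of which may be technical. Under the shared intercept, the calls among the 60 tested genes of the lists below went from 34 to 9 in WT and from 22 to 0 in the mutant. All 9 were in the list of 24 other enzymes and permeases under nitrogen catabolite repression, so every WT call given for another list was lost under that intercept.

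Of the asparagine synthetase genes, ASN2 fell and ASN1 was not called. ASN2, 1 of the 2 asparagine synthetase genes, stood at -0.19, -0.56 and -1.74 in WT, against -1.0, -1.16 and -1.25 in the mutant. It fell in both alleles, with slopes of -0.16 ± 0.04 and -0.17 ± 0.04 per mM (adjusted p = 0.0105 and 0.0107), although leaving out the WT 9 mM array ended the WT call (adjusted p = 0.372), as did the mean of the doses (0.052), and leaving out the mutant 6 mM array ended the mutant call (adjusted p = 0.0595). ASN1, the other synthetase gene, stood at 1.41, 0.56 and -0.29 in WT, against -0.62, -1.39 and -0.94 in the mutant. Its slopes were not called, with adjusted p = 0.599 and 0.0517, nor was their difference (adjusted p = 0.169). ASN1 was thus above the array median at the lower doses in WT and below it on every mutant array.

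Of 15 other genes that make, use or charge asparagine and aspartate, the synthetases included, 13 had a value on all arrays. In WT 3 rose, 2 fell and 8 did not pass, and the median slope was 0.04 per mM, against 0.00 over all genes. HOM3, aspartate kinase at the entry to threonine and methionine synthesis, stood at 2.21, 1.74 and 1.15, lower at each higher dose. It lay above the median and so was called as risen (adjusted p = 0.011, lost without the WT 6 mM array at 0.0835). ADE12, which joins aspartate to IMP in adenine synthesis, rose with adjusted p = 0.0156 (lost without the WT 6 mM array at 0.125 and on the values as deposited at 0.0549). SLM5, the mitochondrial asparaginyl-tRNA synthetase, completes the 3 and was named after its values were seen. DED81, the cytosolic asparaginyl-tRNA synthetase, fell with -0.09, -0.61 and -2.57 (adjusted p = 0.00256), a call that ended when the WT 9 mM array was left out (adjusted p = 0.336) and with the mean of the doses (0.0544). In the mutant HOM2 and HOM3 rose and ASN2 and URA2 fell, the genes HOM2 and URA2 being named after their values were seen. Leaving out the mutant 6 mM array, limma called 0 of the 13 in the mutant. For the difference between the alleles 0 of the 13 were called, while 3 had an unadjusted p below 0.05, of which 2 were higher in the mutant. The share of all genes at that unadjusted threshold is not given here, so nothing is read from the 3.

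**Figure D4:**
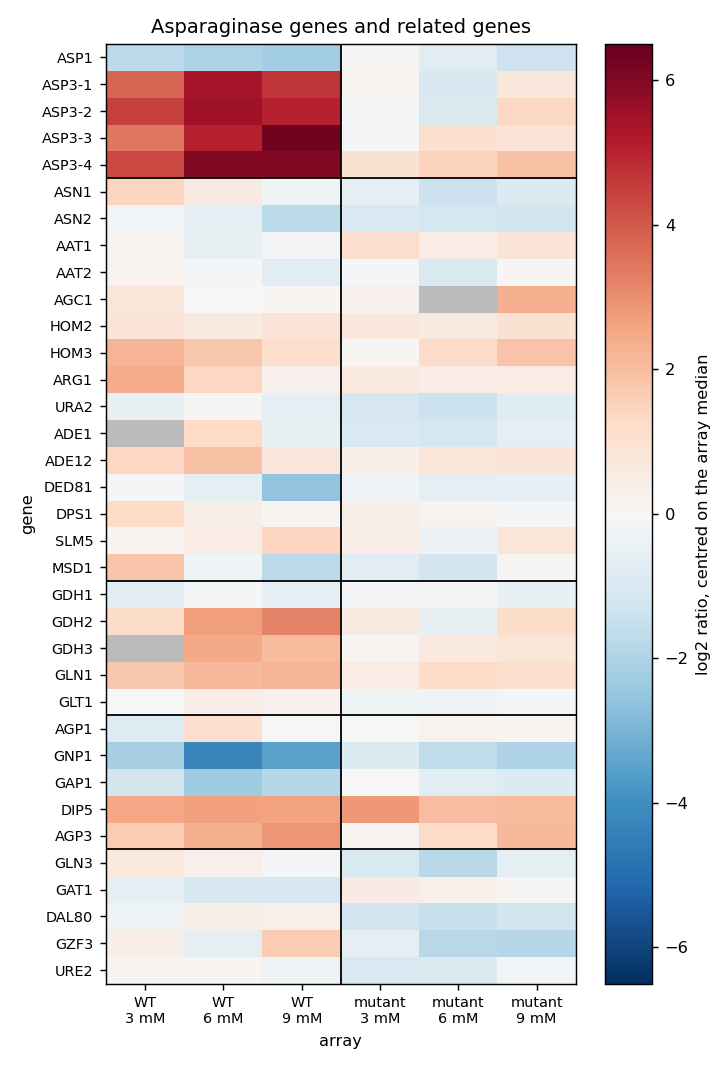
Centred log2 ratio (colour) of the asparaginase genes and of 4 groups of related genes (rows) on the 6 arrays (columns). From the top, the blocks are the asparaginase genes, asparagine and aspartate enzymes, ammonium assimilation, permeases, and GATA factors with URE2. Grey cells have no value. The 4 ASP3 rows, up to 6.27, stand above every other row in WT.

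Genes for enzymes that take up ammonium into glutamate and glutamine, or release it, were partly called as risen in WT. Of 5, 4 had a value on all arrays, and 2 of these rose in WT and 1 in the mutant. GDH2, the NAD-dependent glutamate dehydrogenase that releases ammonium, stood at 1.18, 2.71 and 3.22 in WT, against 0.59, -0.47 and 1.20 in the mutant. It rose in WT (adjusted p = 5.87e-05, or 0.0622 with the shared intercept), and its mutant slope was the lower one, with a difference of -0.31 ± 0.07 (adjusted p = 0.0249). Leaving out either 6 mM array ended that call (adjusted p = 0.101 for WT and 0.0698 for the mutant array), as did the mean of the doses (0.082). GLN1, glutamine synthetase, stood at 1.76, 2.10 and 2.19 in WT, against 0.47, 1.24 and 1.04 in the mutant. It rose in both (adjusted p = 0.0003 and 0.0312), the mutant call being lost without any 1 of the mutant arrays (highest adjusted p = 0.155, without the 6 mM array). With the shared intercept the WT slope went from 0.30 to 0.16 and was not called (adjusted p = 0.279). GDH1 and GLT1, of glutamate synthesis, were not called in either allele. GDH3 lacked a value on the WT 3 mM array and stood at 2.48 and 2.08 at 6 and 9 mM.

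Permeases whose substrates include asparagine or aspartate moved in both directions. In WT, of 5, 2 rose, 2 fell and 1 did not pass. GNP1, a permease for glutamine and asparagine, stood at -2.17, -4.29 and -3.46 and fell (adjusted p = 3.74e-05). GAP1, the general amino acid permease, stood at -1.21, -2.29 and -1.87 and fell (adjusted p = 0.000442). DIP5, the dicarboxylic amino acid permease that takes up aspartate and glutamate, stood at 2.53, 2.68 and 2.63 and rose (adjusted p = 0.00153), and AGP3 rose to 2.87 at 9 mM (adjusted p = 4.79e-05). All 4 calls held when any 1 array was left out. With the shared intercept none of the 4 was called, and the DIP5 slope turned to -0.02. AGP1, a broad-range permease that takes up asparagine, stood at -0.85, 1.08 and 0.00 and was not called. In the mutant DIP5 and AGP3 rose and GNP1 fell, but without the mutant 9 mM array AGP3 (adjusted p = 0.0933) and GNP1 (adjusted p = 0.057) were not called. For the difference between the alleles limma called 0 of the 5, with 3 at an unadjusted p below 0.05, and 2 when the WT 9 mM array was left out. Nothing is read from the 3, since the share of all genes at the unadjusted threshold is not given here.

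Among 5 regulators of nitrogen catabolite repression, 1 was called in WT, where 17.2% of all genes rose and 16.3% fell. Of GLN3, GAT1, DAL80, GZF3 and URE2, none rose in WT and GAT1 fell (adjusted p = 0.0122), a call that ended when the WT array of 6 mM (adjusted p = 0.0582) or of 9 mM (adjusted p = 0.0631) was left out. In the mutant GLN3, DAL80 and GZF3 fell, GZF3 being a GATA repressor that stood at -0.59, -1.79 and -1.86. Its slope difference between the alleles was called at -0.33 ± 0.07 (adjusted p = 0.0295), but not when the WT 9 mM (adjusted p = 0.221), mutant 3 mM (0.0556) or mutant 6 mM (0.0621) array was left out, nor by the mean of the doses (0.086). The calls of GLN3 and DAL80 were lost without the mutant 6 mM array (adjusted p = 0.243 and 0.0597), and that of GLN3 also without the mutant 3 mM array (0.0753) or the WT 6 mM array (0.0522). GLN3 stood at 0.70, 0.34 and -0.10 in WT, against -0.97, -1.79 and -0.65 in the mutant. URE2, which holds Gln3 in the cytoplasm, was not called in either allele.

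Of 24 other enzymes and permeases under nitrogen catabolite repression, 21 had a value on all arrays. In WT 16 rose, MEP3 (an ammonium permease, named after its values were seen) fell and 4 did not pass, with a median slope of 0.26 per mM against 0.00 over all genes. Permeases and regulators of the lists above were not counted here, whether or not they are under this repression too. Among those, GNP1, GAP1 and GAT1 fell in WT, and DIP5 and AGP3 rose. Under the shared intercept 9 of the 21 were called in WT. In the mutant 6 rose and 15 did not pass, with a median slope of 0.07, and 2 to 3 were called without the 3, 6 or 9 mM mutant array. The slope was lower in the mutant for 8 of the 21, and for 3 genes when the WT 6 mM array was left out. The 4 with the largest absolute WT slopes, DAL5, DAL7, CPS1 and BAT2, rose in WT with adjusted p from 5.41e-06 to 0.00011 and were called whichever array was left out. With the shared intercept DAL5 and DAL7 were still called, but CPS1 (adjusted p = 0.102) and BAT2 (adjusted p = 0.317, the slope going from 0.60 to 0.21) were not. DAL5, the allantoate permease, stood at 3.96, 5.74 and 6.19 in WT, against 1.16, 1.10 and 1.79 in the mutant. CPS1, vacuolar carboxypeptidase S, stood at 3.79, 4.47 and 4.53 in WT, against -0.45, -0.25 and 1.26 in the mutant. BAT2, which encodes the cytosolic aminotransferase of branched-chain amino acids, stood at 4.15, 4.47 and 4.05 in WT, against 1.54, 2.11 and 2.36 in the mutant, above each ASP3 copy on all 3 mutant arrays. The 8 lower slopes were counted with results of these genes already known and are no independent evidence.

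The genes with the pattern most like that of ASP3 were found by the root mean square difference over the 6 centred values, among 5207 genes. The 6 nearest to the mean of the copies were DAL5 at 0.66, CPS1 at 0.66, DAL7 at 0.88, TMT1 at 0.94, OPT2 at 0.99 and APE1 at 1.05 log2 units. DAL7 is the malate synthase of allantoin breakdown, TMT1 encodes trans-aconitate methyltransferase, OPT2 an oligopeptide transporter and APE1 the vacuolar aminopeptidase I. TMT1 stood at 3.51, 4.07 and 3.79 in WT, against 0.43, 0.00 and 1.52 in the mutant. APE1 stood at 2.93, 3.91 and 3.81 in WT, against 0.41, 0.45 and 0.90 in the mutant, below the ASP3 mean on every WT array. Within 0.5 log2 units of the ASP3 mean there were 0 genes.

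ASP1 had many near neighbours by the same measure, 55 genes within 0.5 log2 units. The 6 nearest were RPS14A at 0.26, EBP2 at 0.27, SDA1 at 0.29, ROK1 at 0.30, HPT1 at 0.30 and YBT1 at 0.31. RPS14A encodes a protein of the small ribosomal subunit, EBP2, SDA1 and ROK1 act in ribosome assembly, HPT1 salvages hypoxanthine and guanine, and YBT1 is a vacuolar transporter. EBP2 stood at -1.70, -1.89 and -2.10 in WT, against -0.45, -0.96 and -1.46 in the mutant. ROK1 stood at -1.59, -2.04 and -2.36 in WT, against 0.42, -0.37 and -0.79 in the mutant. Many more genes thus lay close to ASP1 than to ASP3, and a pattern of small values has more genes near it.

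**Figure D5:**
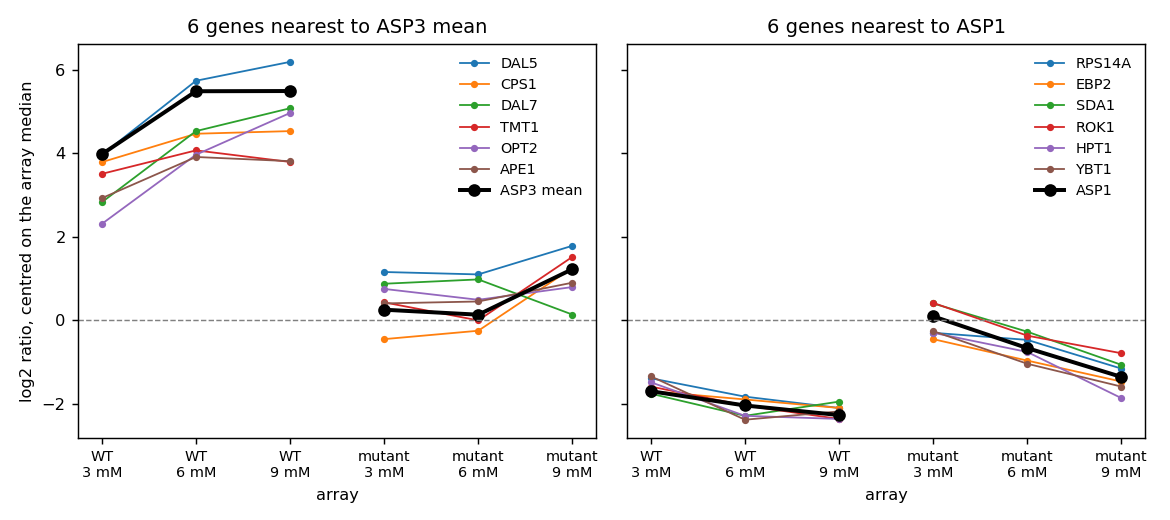
Centred log2 ratio (y axis) on the 6 arrays (x axis) of the mean of the ASP3 copies (left, black) and of ASP1 (right, black), each with the 6 genes nearest to it by root mean square difference (colours). Lines join arrays of 1 allele. The genes near ASP3 lie between 2.31 and 6.19 in WT, and those near ASP1 between -2.38 and -1.34.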

How the data were processed

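The deposited values were log2 ratios of the 2 channels of a spotted array, made by the authors. GenePix scanner output, which the deposited readme lists for 5 arrays, was not analysed here. Background correction, normalization and genome build are not given in the sources used here. Of 6214 probes, 5596 had 1 gene symbol, 0 had several and 618 are unnamed here; all 5596 matched RefSeq R64 by Entrez identifier. Spots of a gene were averaged, which gave 5561 genes, and the median of these was subtracted on every array. Slopes on dose were fitted by lmFit and eBayes of limma 3.58.1 under R 4.3.3 (no intercept, 4 residual and 9.69 prior degrees of freedom) over the 5212 genes with a value on all arrays, and the procedure was tested on simulated data. The members, lists and tests were chosen with earlier results of these data known. Genes were named by a rule: all members, up to 4 called genes per list by absolute WT slope (all genes in lists of 5), ASN1 and ASN2, the neighbours, and the 6 nearest genes. The number of arrays limits the precision. Alternatives were other centrings, a shared intercept, the mean over doses, a floor on low ratios, genes with 4 or more values and leaving out each array.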

Additional observations from a re-analysis of the deposited data

Results flagged for a closer look

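Among the 60 tested genes of the lists, 12 had slopes that differed between the alleles by the limma test of the difference itself (adjusted p below 0.05). All 12 were lower in the mutant. Over all 5212 genes the slope was lower in the mutant for 2.32% and higher for 1.94%. The lists were chosen with earlier results of these data known, so the 12 are no independent evidence. The mutant minus WT slopes, in log2 units per mM, were -0.60 for DAL5, -0.57 for DAL7, -0.56 for CPS1, -0.50 for OPT2, -0.41 for DAL4 and -0.34 for UGA4. They were -0.32 for DAL1, the allantoinase gene, -0.28 for PUT1, proline oxidase, -0.31 for GDH2 and -0.33 for GZF3. Outside these, AMD2, a putative amidase, had -0.48 and PHO12, an acid phosphatase, had -0.23. Of the 12, DAL4, DAL7 and OPT2 were called whichever array was left out, and the others were lost without at least 1 array. With the mean of the doses in place of a slope, DAL4 (adjusted p = 0.0699), GDH2 (0.082), GZF3 (0.086), DAL1 (0.108), PUT1 (0.117), UGA4 (0.177) and PHO12 (0.0578) were not called. When the WT 6 mM array was left out, 5 list genes were called.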

How the results depend on the processing

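No paired analysis was possible because each allele and dose had 1 array and the labels give no replicate numbers. When 1 array was left out, the ASP3 mean slope ranged from 0.68 to 0.997 in WT (the highest without the WT 9 mM array), from 0.04 to 0.13 in the mutant and from -0.90 to -0.58 for mutant minus WT. The ASP1 slope ranged from -0.38 to -0.28, from -0.14 to -0.08 and from 0.15 to 0.26. Genes called ranged from 1032 to 1853 in WT, from 584 to 1643 in the mutant and from 19 (without the WT 6 mM array) to 298 for the difference, and list genes called from 27 to 35, from 8 to 24 and from 5 to 15. In the mutant ASP3-1 ranged from -0.128 to 0.0765 and ASP3-2 from -0.127 to 0.135, below 0 when the mutant 9 mM array was left out.

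On the values as deposited the ASP1 slope was -0.35 in WT and -0.19 for the mutant allele, and ASP3-1 and ASP3-2 had mutant slopes of -0.0571 and -0.0099. A common intercept for the 6 arrays left 144 genes called in WT, 22 in the mutant, and 9 and 0 list genes. The ASP3 mean slope was then 0.53 in WT but -0.12 with the mutant allele, where the copies had -0.220, -0.170, -0.0089 and -0.0697 and the ASP3 mean minus ASP1 had -0.0354. DIP5 turned to -0.0199 in WT and to -0.0865 with the mutant allele, where DAL5 turned to -0.0633 and BAT2 to -0.0879. From the mean of the doses in place of a slope, the ASP3 mean gave 0.83 per mM in WT and ASP3-1 gave -0.0093 in the mutant. The mutant minus WT slope of the ASP3 mean was below 0, and that of ASP1 above 0, under every alternative run. Some of these could not move them. Both alleles had the same doses, so a shared intercept cancels in the difference, which stayed at -0.65 and 0.17. Taking genes with 4 or more values also left them as they were. The causes were not tested. No asparaginase ratio lay below 0.1, so the planned floor at that ratio altered no value and tests nothing. By Pearson's r in place of distance, 2 of the 6 genes nearest to ASP3 and 1 of the 6 nearest to ASP1 were named again. Of 48 calls on named list genes, centring on all probes or taking genes with 4 or more values ended none, the values as deposited ended 5, the mean of the doses 11, and the shared intercept ended 30 and reversed 4. The 5 were ADE12 in WT (adjusted p = 0.0549) and HOM3 (0.0765), GLN1 (0.151), DAL5 (0.0755) and NTA1 (0.166) in the mutant. The 11 were ASN2 (0.052) and DED81 (0.0544) in WT, PHO3 (0.0611) and NTA1 (0.0893) in the mutant and the differences of the alleles named above. The 14 calls kept under the shared intercept include all 12 differences between the alleles, whose slopes that intercept cannot move. Signal over background was not examined.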

Other observations

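Of 7 genes for secreted enzymes other than Asp3, in WT 1 rose, 2 fell and 4 did not pass. BAR1, the secreted protease that degrades alpha-factor, stood at 1.51, 2.25 and 1.87 in WT and rose (adjusted p = 0.000673), against -0.36, 0.56 and 0.54 in the mutant, where it was not called (adjusted p = 0.377). Its 3 mutant values thus lay below its 3 WT values, as for the ASP3 copies and for 14.6% of the 5212 genes with a value on all arrays. The difference of its slopes was not called (-0.22 ± 0.07, adjusted p = 0.0766). PHO3, a constitutive acid phosphatase, stood at -1.70, -1.16 and -2.10 and fell (adjusted p = 0.00111). SUC2, invertase, stood at -1.13, -1.04 and -0.91, nearer the median at each higher dose. It lay below the median and so was called as fallen (adjusted p = 0.0175). That call ended when the WT 6 mM array was left out (adjusted p = 0.0785). In the mutant limma called 0 higher, also at an unadjusted p below 0.05, and SUC2, PHO3 and PHO12 fell (adjusted p = 0.0365, 0.0198 and 0.0107). None of the 3 was called when the mutant 6 mM array was dropped (adjusted p = 0.106, 0.0604 and 0.0685). The calls of SUC2 (0.282) and PHO3 (0.289) also ended when the 9 mM one was dropped. SUC2 was also lost without the mutant 3 mM array (0.0667), and PHO3 with the mean of the doses (0.0611). The slope was lower in the mutant for 1 of the 7, PHO12, at -0.23 ± 0.05 (adjusted p = 0.0364), and 3 were lower at an unadjusted p below 0.05. The share of all genes at the unadjusted threshold is not given here, so nothing is read from the 3. The PHO12 call was lost without any 1 array other than the WT 3 mM one (adjusted p from 0.0502 to 0.143) and with the mean of the doses (0.0578). With the shared intercept none of the calls in WT or in the mutant held.

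Of 5 other genes for enzymes known or predicted to hydrolyse amides or nitriles, 2 rose in WT. AMD2 stood at 1.64, 3.08 and 2.73 in WT and at -0.90, -1.34 and -0.25 in the mutant. It rose in WT (adjusted p = 0.000173, or 0.0914 with the shared intercept), was not called in the mutant (adjusted p = 0.157), and its slope was lower in the mutant by -0.48 ± 0.08 (adjusted p = 0.00895, or 0.0517 without the WT 6 mM array). NIT3 stood at 1.33, 1.26 and 1.26 in WT and rose (adjusted p = 0.00769). NTA1, the amidase of N-terminal asparagine and glutamine, rose in the mutant only by this test (adjusted p = 0.0239, or 0.260 if the mutant 9 mM array is left out), and its difference between the alleles was not called (adjusted p = 0.724). PNC1, nicotinamidase, was not called in either allele. NIT2 fell in the mutant (adjusted p = 0.00979, or 0.0828 if the mutant 9 mM array is left out).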
